A study of Mus musculus with 12 samples.

Results

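The cells described here were neutrophil precursors of mouse liver that devoted at least 1% of their RNA molecules to Camp and Ngp. They were selected from single-cell RNA sequencing of fetal livers (embryonic stage E16.5) and of livers of newborn pups on day 3 (P3), in which each RNA molecule carries a unique molecular identifier (UMI) and each droplet a cell barcode. A barcode entered when it held at least 1000 UMIs, at most 15% of them from mitochondrial genes, and at least 1% of them from Camp and Ngp together. In all, 18638 of 184493 barcodes that passed the first 2 filters met the third. These gated cells numbered 1105, 1686, 1719, 1105 and 1406 in the 5 libraries of E16.5 and 4294, 2933, 2588 and 1802 in the 4 libraries of P3. The choice used the levels of Camp and Ngp themselves, so their excess over other cells is a description.

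All animals came from crosses between mice heterozygous for the Nodder (Ndr) allele of Jag1, the gene of a Notch ligand, and were Jag1+/+, Jag1Ndr/+ or Jag1Ndr/Ndr. The E16.5 libraries were Jag1+/+ replicate 1, Jag1Ndr/+ replicate 1, Jag1Ndr/Ndr replicates 1 and 2, and a shared library deposited identically as Jag1+/+ replicate 2 and Jag1Ndr/+ replicate 2. At P3, library D carried only the Jag1Ndr/+ label. Library C consisted of the 15145 barcodes of a Jag1Ndr/Ndr sample of 35072 that were left once the 19927 it shared with library A had been set aside, so it carried only the Jag1Ndr/Ndr label. Libraries A and B, taken from the samples labelled Jag1+/+, were also present under other labels, so their genotype was unclear. The second P3 samples labelled Jag1Ndr/+ and Jag1Ndr/Ndr were not used, because they shared most of their barcodes with libraries A and B. Homozygous pups were recognised by jaundice, and dead cells were depleted from every sample. Only the fetal livers were digested with TrypLE. Stage therefore cannot be told apart from digestion, from the software version or from the deposited gene list, which differed between the stages. The labels name 2 individuals per genotype and stage, and do not say which of them the shared library came from, so p-values measure the spread between these libraries.

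Neutrophils mature through stages that are told apart by their granules. Promyelocytes make primary granule proteins such as myeloperoxidase and elastase, myelocytes and metamyelocytes make specific granule proteins such as lactoferrin, and later cells make gelatinase granules and lose the ability to divide. Camp encodes the antimicrobial peptide cathelicidin and Ngp the neutrophilic granule protein, both made at the specific granule stage. The liver is the main blood-forming organ of the fetus and hands this role to the bone marrow around birth.

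Camp, Ngp and Ltf all lay on chromosome 9 of GRCm38. Camp was at positions 109847379 to 109849617 on the minus strand, Ngp at 110419747 to 110423012 and Ltf at 111019271 to 111042767, both on the plus strand. Lcn2 was on chromosome 2 (32384633 to 32388252) and Olfm4 on chromosome 14 (79984081 to 80023139). A stretch of RefSeq's promoter window is shown for each of these 5 specific granule genes. Camp and Ngp chose the cells, Ltf and Lcn2 stood higher in them than in other barcodes, and Olfm4 moved against Ltf and Lcn2 between stages. The stretches are from RefSeq on GRCm38.p6, run 5′ to 3′ on the gene's own strand, and leave out bases that GENCODE annotates as untranslated exon. In all 5 the RefSeq start, up to which the window runs, lay inside the gene as GENCODE annotates it. The printed bases lie before the whole annotated gene for Camp, Ngp and Ltf, but inside it for Lcn2 and Olfm4, where another annotated transcript starts further upstream. Capitals mark TTNNGCAA (a form of the C/EBP site) or GAGGAAG (a form of the PU.1 site) on either strand.
Camp, chr9:109849618-109849706, minus strand: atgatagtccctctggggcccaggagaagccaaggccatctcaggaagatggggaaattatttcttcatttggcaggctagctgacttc
Ngp, chr9:110419558-110419746, plus strand: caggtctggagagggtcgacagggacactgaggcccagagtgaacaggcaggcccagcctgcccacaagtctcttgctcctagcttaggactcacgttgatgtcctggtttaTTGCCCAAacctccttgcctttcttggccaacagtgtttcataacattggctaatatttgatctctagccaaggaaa
Ltf, chr9:111019042-111019270, plus strand: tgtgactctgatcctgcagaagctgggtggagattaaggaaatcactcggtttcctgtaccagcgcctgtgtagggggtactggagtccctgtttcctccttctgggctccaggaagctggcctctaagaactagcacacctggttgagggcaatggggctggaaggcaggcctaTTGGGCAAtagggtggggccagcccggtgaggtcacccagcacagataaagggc
Lcn2, chr2:32387798-32387989, minus strand: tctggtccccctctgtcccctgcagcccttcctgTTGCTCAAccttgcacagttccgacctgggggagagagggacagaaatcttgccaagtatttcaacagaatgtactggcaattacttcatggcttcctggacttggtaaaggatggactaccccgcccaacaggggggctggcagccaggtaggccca
Olfm4, chr14:80000052-80000250, plus strand: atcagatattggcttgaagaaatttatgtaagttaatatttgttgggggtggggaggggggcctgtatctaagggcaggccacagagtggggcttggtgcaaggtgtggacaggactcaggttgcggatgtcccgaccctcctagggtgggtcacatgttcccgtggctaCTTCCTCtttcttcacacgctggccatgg
Motifs were searched in the full 250 bases before the RefSeq start. For 7 of the 9 specific granule genes with a sequence this window included bases that GENCODE annotates as untranslated exon, from 7 in Fcnb to 161 in Camp. TTNNGCAA was found in 4 of the 9 and in 9.56% of 32851 windows of all genes, and GAGGAAG in 3 of the 9 and in 10.6% of all windows. The 2 motifs overlapped in none of the 9, and only Lcn2 held both, its GAGGAAG match within the exon. Outside the annotated exons TTNNGCAA was found in 4 of the 9 and GAGGAAG in 2. Counted back from the end of the printed sequence, the match began at base 54 in Ltf, 158 in Lcn2, 77 in Ngp and 29 in Olfm4. A further TTNNGCAA match of Ngp lay within its exon and is not printed.

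The marker genes fitted the label of neutrophil precursors when set against barcodes outside the neutrophil gates. This comparison does not tell precursors from later neutrophils, whose levels are given below. The markers Ltf, Chil3 and Lcn2, which the selection did not use, averaged 3329.7, 1001 and 7625 CPM (UMIs of a gene per 1000000 UMIs) in gated cells at E16.5 and 11.1, 4.82 and 22.2 CPM in the remaining barcodes. These are the barcodes outside all neutrophil gates, without those at 0.5% to 1% of UMIs on Camp and Ngp. At P3 the same 3 genes stood at 6225, 2899.8 and 13656 CPM against 34.8, 21 and 92.1 CPM. CPM were computed from UMIs summed over the cells of a library, over the 22519 genes present in both stages' lists. RNA of other cells was also present. The 10 erythroid markers summed to 123410 to 216680 CPM in gated cells at E16.5 and to 37974 to 62707 CPM at P3, and globin genes took a median of 10.7% to 18.8% of a gated cell's UMIs at E16.5 and of 0.297% to 0.549% at P3. The 10 hepatocyte markers summed to 1207.5 to 2202.5 CPM in gated cells at E16.5 and to 361 to 648 CPM at P3. In the remaining barcodes the hepatocyte sums were 3928 to 9677.5 and 1353 to 2514 CPM. Markers of 10 macrophage genes summed to 106 to 183 CPM at E16.5 and 446 to 722 CPM at P3, against 275 to 549 and 1269 to 2767 CPM in the remaining barcodes. The 10 B cell markers summed to 155 to 338 CPM at E16.5 and 567 to 788 CPM at P3. No listed marker of these cell types was at 0. The 10 monocyte markers summed to 195 to 433 CPM at E16.5 and 365 to 516 CPM at P3. In the remaining barcodes they summed to 108 to 375 and 448 to 713 CPM. The 10 T and NK markers summed to 61.9 to 133 and 154 to 211 CPM, against 14.8 to 33.4 and 313 to 557 CPM. At E16.5 both sums were thus higher in the gate than in the remaining barcodes, in every library. The gated cells held 15008746 to 20846503 UMIs per library at E16.5 and 8999993 to 47948279 at P3. Barcodes shared between the gated cells of 2 libraries made up at most 0.362% of the smaller one, and no doublet caller was run.

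Gated cells were a larger share of the barcodes at P3. They made up 5.84%, 8.18%, 5.92%, 6.02% and 5.32% of the passing barcodes at E16.5 (in the order used throughout: Jag1+/+ replicate 1, the library with both labels, the Jag1Ndr/+ one and both homozygous ones) and 20.0%, 16.7%, 17.2% and 10.6% in libraries A to D of P3. Every P3 library was above every E16.5 library, and library D was the lowest of P3. The mean rose from 6.25% ± 1.11 (SD, n = 5) to 16.1% ± 3.96 (SD, n = 4), with a 2-sided exact permutation p of 0.0159, the smallest that 5 libraries against 4 can give. Every passing barcode of the E16.5 libraries and of library C held at least 2000 UMIs, unlike those of libraries A, B and D. With 2000 UMIs required throughout, the P3 mean was 17.3% and the E16.5 mean was unchanged (exact permutation p = 0.0159). Among cells of the 3 neutrophil gates (the present one, a primary granule gate and a later gate, both defined below), the gated cells held 77.6% ± 1.35 at P3 (SD, n = 4) and 68.6% ± 3.73 at E16.5 (SD, n = 5; exact permutation p = 0.0159). With only barcodes under 5% globin counted, the shares were 27.8% and 18.04% and the exact permutation p was 0.0635. When barcodes with 0.5% or more of UMIs on markers of other cell types were also left out, they were 45.8% and 23.8% (exact permutation p = 0.0159). This setting removes other cell types from the total, so it does not give a share of the liver. It kept 152 to 646 barcodes per library at E16.5 and 3434 to 6312 at P3. The Jag1Ndr/+ value of E16.5 rested on 16 of 152 barcodes.

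**Figure D1:**
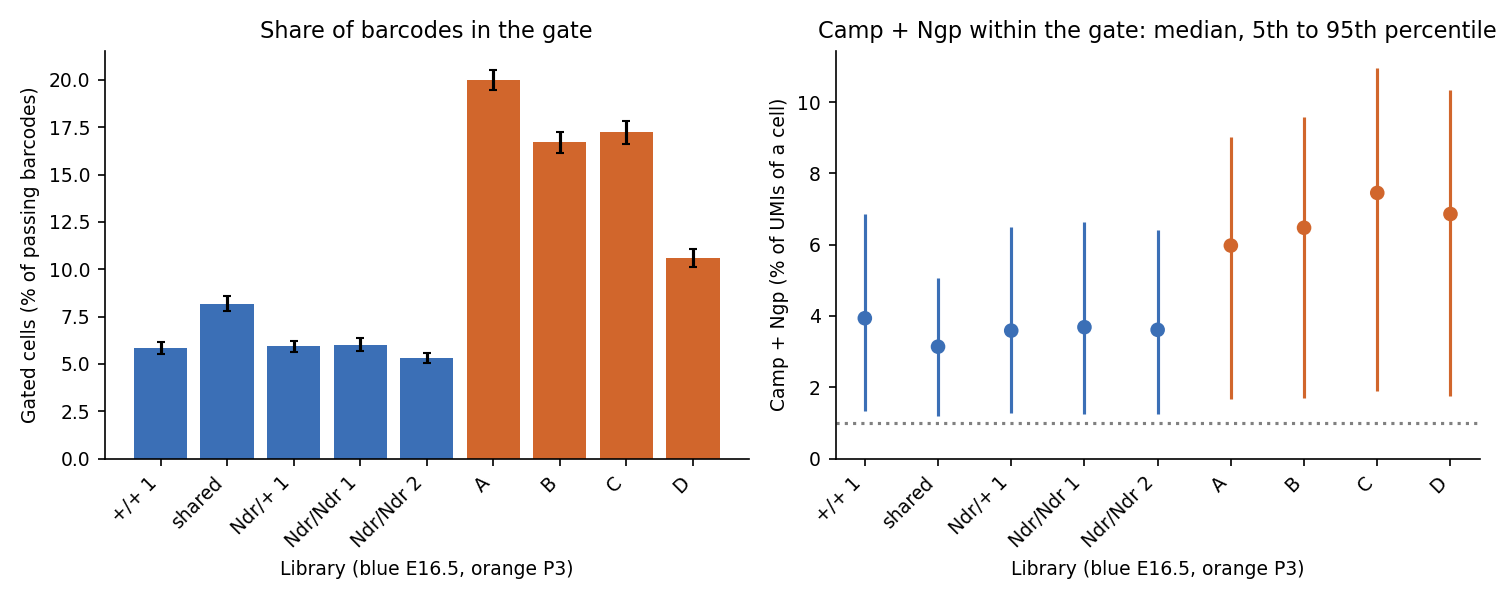
Left, gated cells as a percent of passing barcodes in each library, as bars with exact binomial 95% intervals that cover counting error only. Right, the percent of a gated cell's UMIs on Camp and Ngp, as the median (point) and the 5th to 95th percentile (line), with the 1% limit dotted. The 4 P3 libraries stand at 10.6% to 20.0% of barcodes, the 5 E16.5 libraries at 5.32% to 8.18%.

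The cells at P3 also sat deeper in the gate. The median cell spent 3.94%, 3.14%, 3.59%, 3.69% and 3.61% of its UMIs on Camp and Ngp at E16.5 and 5.97%, 6.47%, 7.45% and 6.86% in libraries A to D. Cells with at least 8% numbered 0 to 11 per library at E16.5, whereas they were 16.8% to 41.7% of the gated cells at P3. The 1% limit did not lie in a gap between cells. At E16.5, 276 cells had 0.8% to 1% and 274 had 1% to 1.2%, and at P3 these numbers were 133 and 158. Just outside the limit Ltf and Lcn2 stood at 1437 and 2630 CPM at E16.5, and just inside at 1772 and 2924 CPM. At P3 they stood at 1066 and 2348 CPM outside and at 1213 and 3020 CPM inside.

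Levels of other genes differed along the Camp and Ngp share within the gate. For this description the cells were divided at 2%, 4% and 8%, CPM were computed without Camp and Ngp, and bins with fewer than 20 cells in a library were left out. At P3, Elane, the gene of neutrophil elastase, went from 2686 ± 501 CPM at 1% to 2% to 36.8 ± 5.8 CPM at 8% or more (SD, n = 4), and Mpo from 1796 ± 645 to 32.3 ± 2.85 CPM. Over the same bins Ltf went from 1687 ± 336 to 10746 ± 1935 CPM, Lcn2 from 3764 ± 412 to 23086 ± 1522 CPM and Cebpe from 423 ± 106 to 1131 ± 153 CPM. At E16.5 Elane went from 758 ± 263 CPM at 1% to 2% to 113 ± 68.7 CPM at 4% to 8% (SD, n = 5), and Ltf from 2224 ± 248 to 3967 ± 792 CPM. The lower end of the gate thus held RNA of the primary granule stage at both stages, with more of it at P3.

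At E16.5 the lower end also held more RNA of some later genes, whereas at P3 these genes differed in direction. Mmp8, the gene of neutrophil collagenase, stood at 853 ± 220.0 CPM at 1% to 2% and at 188 ± 127 CPM at 4% to 8% (SD, n = 5). Retnlg, a resistin-like gene of late neutrophils, stood at 2176 ± 571 and 407 ± 192 CPM in these bins, and at P3 at 1379 ± 828, 1182 ± 569, 957 ± 255 and 430.3 ± 188 CPM from the lowest bin to the highest (SD, n = 4). Mmp8 at P3 was at 295 ± 76.8, 348 ± 95.7, 447 ± 51.2 and 272 ± 39.9 CPM over the same bins, so that its highest mean was at 4% to 8%. Mmp9, the gelatinase B gene, went from 404 ± 107 to 160.5 ± 94.2 CPM at E16.5 and stood at 157 ± 23.8 CPM in the lowest bin and 255 ± 62.3 CPM in the highest at P3. Cxcr2, a chemokine receptor of mature neutrophils, stood at 44.8 ± 21.8 and 93.5 ± 15.7 CPM in the lowest and the highest bin of P3, so that of the 4 later genes given Retnlg alone was highest in the lowest bin there. Prg2, the eosinophil major basic protein gene, averaged 137 ± 156 CPM in the lowest bin at P3, with a minimum of 1.16 and a maximum of 286 CPM over the 4 libraries, and 0.861 ± 0.957 CPM in the highest. RNA of other cells moved along the bins as well. Hbb-bs, an adult globin gene, was at 39229 ± 9372, 60451 ± 11858, 36920 ± 9646.5 and 4159 ± 1005 CPM from the lowest bin to the highest at P3. At E16.5 Hbb-bs was at 134360 ± 43468 CPM at 1% to 2%, 114850 ± 33647 CPM at 2% to 4% and 66188 ± 21514 CPM at 4% to 8%. Its part in these profiles was not tested.

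**Figure D2:**
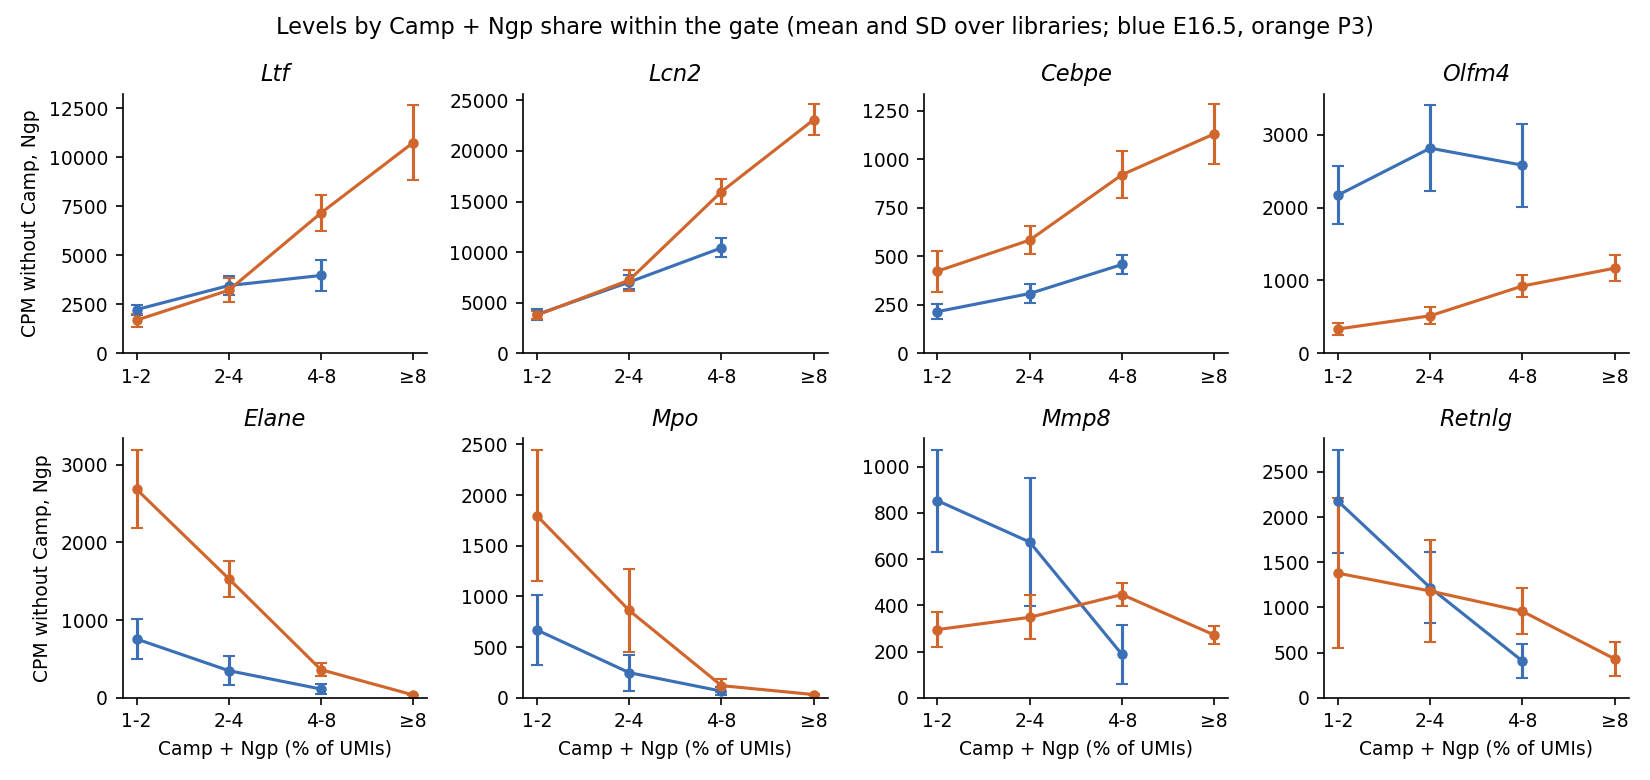
Mean CPM of 8 genes, computed without Camp and Ngp, in gated cells by their percent of UMIs on Camp and Ngp, with the SD over 5 E16.5 libraries (blue) or 4 P3 libraries (orange). Elane and Mpo are highest at 1% to 2% at both stages, Ltf, Lcn2 and Cebpe rise along the bins at P3, and Mmp8 falls along them at E16.5.

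Neighbouring cells were taken for orientation by 2 further gates, both with Camp and Ngp under 1% of UMIs. The primary granule gate required Mpo, Elane, Prtn3 and Ctsg at 1% or more together and held 3693 cells, and the later gate required S100a8 and S100a9 at 2% or more and held 2979 cells. CPM of these 2 gates were computed without Camp and Ngp in the total, and those of the gated cells with them. Mpo stood at 4944 ± 780.4 CPM at E16.5 and 7536 ± 1427 CPM at P3 in the primary granule gate, against 227 and 420.5 CPM in the gated cells. Retnlg stood at 4468 ± 1353 and 3153 ± 1876 CPM in the later gate, against 998 and 878 CPM in the gated cells. The markers Ltf, Chil3 and Lcn2 averaged 622, 169 and 1953 CPM in the later gate at E16.5, and 424, 648 and 1698 CPM at P3. Cebpe, the gene of the C/EBP epsilon factor that specific granules require, stood in the gated cells at 342 and 799 CPM and in the later gate at 117 ± 16.9 and 148 ± 44.8 CPM.

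Expression in gated cells was then compared between P3 and E16.5 with edgeR's quasi-likelihood test on UMIs summed per library. Of 11352 genes tested, 5484 (48.3%) passed a Benjamini-Hochberg adjusted p of 0.05, the threshold used throughout. Of all genes tested 24.8% were higher at P3 and 23.5% lower, and the median log2 fold change was 0.03. For 37.4% of them the CPM of the stages did not overlap between libraries. The counts of named lists below are to be read against these shares. Fold changes were fitted with edgeR's TMM scaling and so were lower than the log2 ratio of mean CPM, by a median of 0.21 over the genes tabulated. The comparison was repeated in cells low in globin, which are the gated cells with under 5% of UMIs on globin and under 0.5% on markers of other cell types. These numbered 16 to 166 per library at E16.5 and 1332 to 3239 at P3, and 21.2% of all genes tested in them were called higher at P3 and 19.1% lower. In cells at 2% to 8% of UMIs on Camp and Ngp these shares were 24.1% and 23.0%, in cells at 4% to 8% they were 22.6% and 21.6%, and in cells thinned to 1000 UMIs 20.1% and 19.6%. A summed level does not tell fewer expressing cells from less RNA per cell.

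Most specific granule genes were higher at P3. Of the 9 listed genes besides Camp and Ngp, all tested, 7 rose and 1 fell, with a median log2 fold change of 0.61. Ngp and Camp chose the cells, so their levels are a description and are left out of that count. Ngp stood at 16907, 15008, 18018, 16362 and 15806 CPM at E16.5 and at 29897, 34971, 40469 and 34458 CPM at P3, and Camp at 23946, 17382, 20041, 22266 and 22713 and at 22550.0, 21637, 21717 and 23369 CPM. The balance of both is a description too: there were 0.706, 0.863, 0.899, 0.735 and 0.696 UMIs of Ngp per UMI of Camp at E16.5 and 1.33, 1.62, 1.86 and 1.47 in libraries A to D of P3.

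Ltf, the gene of the iron-binding protein lactoferrin, stood at 3622, 3536, 2707, 3916 and 2867 CPM at E16.5 and at 5386, 5492, 8067 and 5956 CPM at P3. All P3 libraries were above all of E16.5, with a log2 change of 0.69 ± 0.17 (SE; adjusted p = 0.00523) by edgeR. The order of the stages turned along the gate, in CPM computed without Camp and Ngp. At 1% to 2% Ltf averaged 2224 CPM at E16.5 and 1687 CPM at P3, and at 2% to 4% 3452 and 3213 CPM. At 4% to 8% it averaged 3967 and 7155 CPM. Lcn2 encodes a protein that binds bacterial siderophores, and it stood at 7623, 6528, 8434, 8167 and 7374 CPM at E16.5 and at 12651, 14448, 15100.0 and 12424 CPM at P3. These groups did not overlap either, with a log2 change of 0.61 ± 0.17 (SE; adjusted p = 0.012) by edgeR. In the same bins Lcn2 averaged 3831 and 3764 CPM, 7034.5 and 7229 CPM, and 10417 and 15975 CPM. Chil3, a chitinase-like gene, stood at 1202, 992, 309, 1258 and 1242 CPM at E16.5 and at 1705, 4348, 2714 and 2832 CPM at P3. The Jag1Ndr/+ library of E16.5 was far below the others, and the groups did not overlap, with a log2 change of 1.33 ± 0.33 (SE; adjusted p = 0.00564) by edgeR.

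The other risers of the list were Cd177 (209 ± 40.9 to 407 ± 39.7 CPM, log2 0.77, adjusted p = 6.42e-04 by edgeR), a neutrophil surface glycoprotein, and Pglyrp1 (1546 ± 71.7 to 2834 ± 627 CPM, log2 0.67, adjusted p = 0.0135), which recognises bacterial peptidoglycan. Hp, the haptoglobin gene (834 ± 155 to 1494 ± 224 CPM, log2 0.60, adjusted p = 0.0284 by edgeR), and Fcnb, the gene of the lectin ficolin B (475 ± 75.6 to 786 ± 291 CPM, log2 0.50, adjusted p = 0.0438), also rose. Cd177 rose more in cells low in globin (log2 1.95, adjusted p = 5.13e-06 by edgeR). Wfdc21 stood at 2168 ± 187 CPM (SD, n = 5) at E16.5 and 2045 ± 85 CPM (SD, n = 4) at P3, and its difference did not pass by edgeR (adjusted p = 0.0742). It was called lower at P3 with DESeq2 (log2 -0.31, adjusted p = 0.0105), in the band of 2% to 8% (log2 -0.53, adjusted p = 0.00796 by edgeR), in that of 4% to 8% (log2 -0.36, adjusted p = 0.0476) and without the shared library (adjusted p = 0.0341). The fold change was above 0, without passing, in cells low in globin (log2 0.32, adjusted p = 0.152 by edgeR) and in thinned cells (log2 0.04, adjusted p = 0.855). When only cells with 2% to 8% of UMIs on Camp and Ngp were used, Ltf (log2 0.41, adjusted p = 0.0619 by edgeR), Lcn2 (log2 0.32, adjusted p = 0.167), Hp (log2 0.43, adjusted p = 0.115) and Fcnb (log2 0.43, adjusted p = 0.0757) did not pass, and with cells at 4% to 8% Ltf, Lcn2 and Hp passed and Fcnb did not. Fcnb also failed without the shared library, Jag1+/+ replicate 1, Jag1Ndr/+ replicate 1, Jag1Ndr/Ndr replicate 1 or libraries B or D, with adjusted p-values from 0.0653 to 0.161, and Hp without Jag1+/+ replicate 1, Jag1Ndr/Ndr replicate 2 or library B, from 0.0613 to 0.0816. Over all alternatives, Fcnb lost its call in 13 and kept it in 11.

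**Figure D3:**
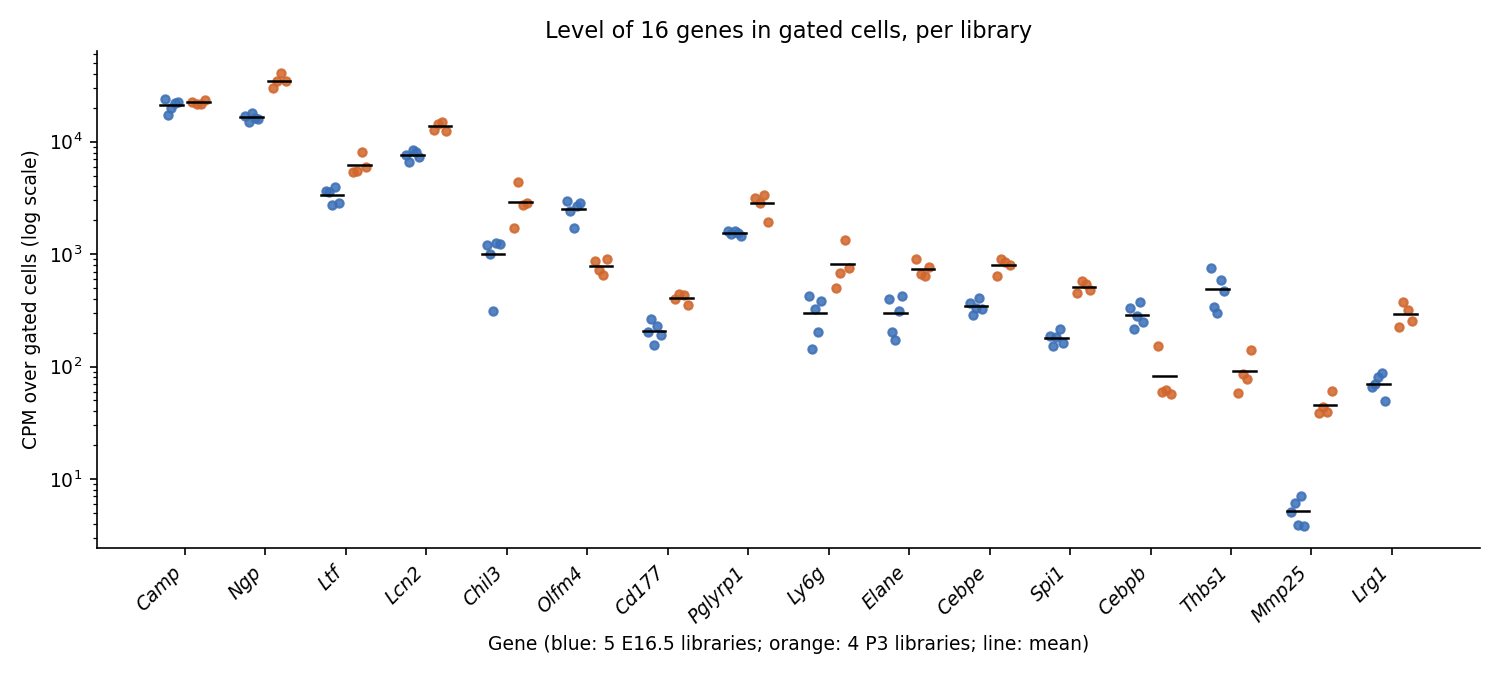
CPM over gated cells of 16 genes on a log scale, with 1 point per library (blue, 5 at E16.5; orange, 4 at P3) and the mean as a line. Olfm4, Cebpb and Thbs1 lie lower at P3 in every library, and Ngp, Ltf, Lcn2, Spi1, Mmp25 and Lrg1 lie higher in every library.

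Olfm4, a specific granule gene known to be made by only a part of the neutrophils, moved the other way. It stood at 2983, 2397, 1696, 2682 and 2846 CPM at E16.5 and at 863, 726, 650.3 and 896 CPM at P3, so every P3 library was below every E16.5 library. The mean fell from 2521 ± 510.3 (SD, n = 5) to 784 ± 115 CPM (SD, n = 4), with a log2 change of -1.89 ± 0.18 (SE; adjusted p = 9.49e-06) by edgeR. It remained lower in cells at 2% to 8% (log2 -2.02, adjusted p = 1.27e-05 by edgeR) and at 4% to 8% (log2 -1.63, adjusted p = 4.94e-05), and by less in cells low in globin (log2 -0.80, adjusted p = 0.0361). Fewer cells carried it: with each cell thinned to 1000 UMIs, 78.8%, 70.9%, 64.0%, 71.8% and 84.0% of gated cells had an Olfm4 UMI at E16.5 and 45.6%, 37.7%, 38.1% and 47.0% in libraries A to D. These means of 73.9% ± 7.69 (SD, n = 5) and 42.1% ± 4.88 (SD, n = 4) differed with an exact permutation p of 0.0159, the smallest possible.

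Of the barcodes outside the neutrophil gates 0.388% to 1.96% had an Olfm4 UMI at the same depth, and their median total before thinning was 2814 to 9115 UMIs. Without thinning, 79.6% to 95.02% of gated cells had an Olfm4 UMI at E16.5 and 51.4% to 63.6% at P3. In library A, whose gated cells had a median of 9479 UMIs, 62.3% had at least 1 Olfm4 UMI, 56.6% had at least 5, and the top 10% had 24.7 or more. In the later gate 43.4% to 65.4% of thinned cells had an Olfm4 UMI at E16.5 and 9.76% to 21.02% at P3, so the same order of the stages was seen there. In the primary granule gate the shares were 9.24% to 16.8% and 3.53% to 6.04%.

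Ly6g, the surface antigen used to sort neutrophils, and Mmp25, a membrane-bound metalloproteinase of neutrophils, showed the opposite order. Ly6g stood at 425, 142, 328, 205 and 385 CPM at E16.5 and at 500.2, 677, 1340.3 and 758 CPM at P3, without overlap and with a log2 change of 1.22 ± 0.35 (SE; adjusted p = 0.0116) by edgeR. The fold change was larger in cells low in globin (log2 3.59, adjusted p = 2.64e-05 by edgeR). After thinning, 34.7%, 13.97%, 26.5%, 19.7% and 30.9% of gated cells had a Ly6g UMI at E16.5 and 41.6%, 48.2%, 65.2% and 51.0% at P3 (exact permutation p = 0.0159, n = 5 and 4). Thinned shares also follow the level per cell. Without thinning the share was 77.8% in Jag1+/+ replicate 1, 48.5% in the shared library, 70.4% in Jag1Ndr/+ replicate 1 and 63.4% in Jag1Ndr/Ndr replicate 1. Outside the neutrophil gates 0.0679% to 0.174% of thinned barcodes of these libraries had a Ly6g UMI. Mmp25 stood at 5.05, 6.16, 3.89, 7.06 and 3.84 CPM at E16.5 and at 38.3, 43.9, 39.2 and 60.3 CPM at P3, with a log2 change of 2.91 ± 0.18 (SE; adjusted p = 4.30e-07) by edgeR, and with log2 4.40, adjusted p = 1.32e-06 in cells low in globin. It was detected in 0.418% to 0.875% of thinned gated cells at E16.5 and in 5.08% to 8.20% at P3, and in at most 0.0615% of the barcodes outside the neutrophil gates of any library.

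**Figure D4:**
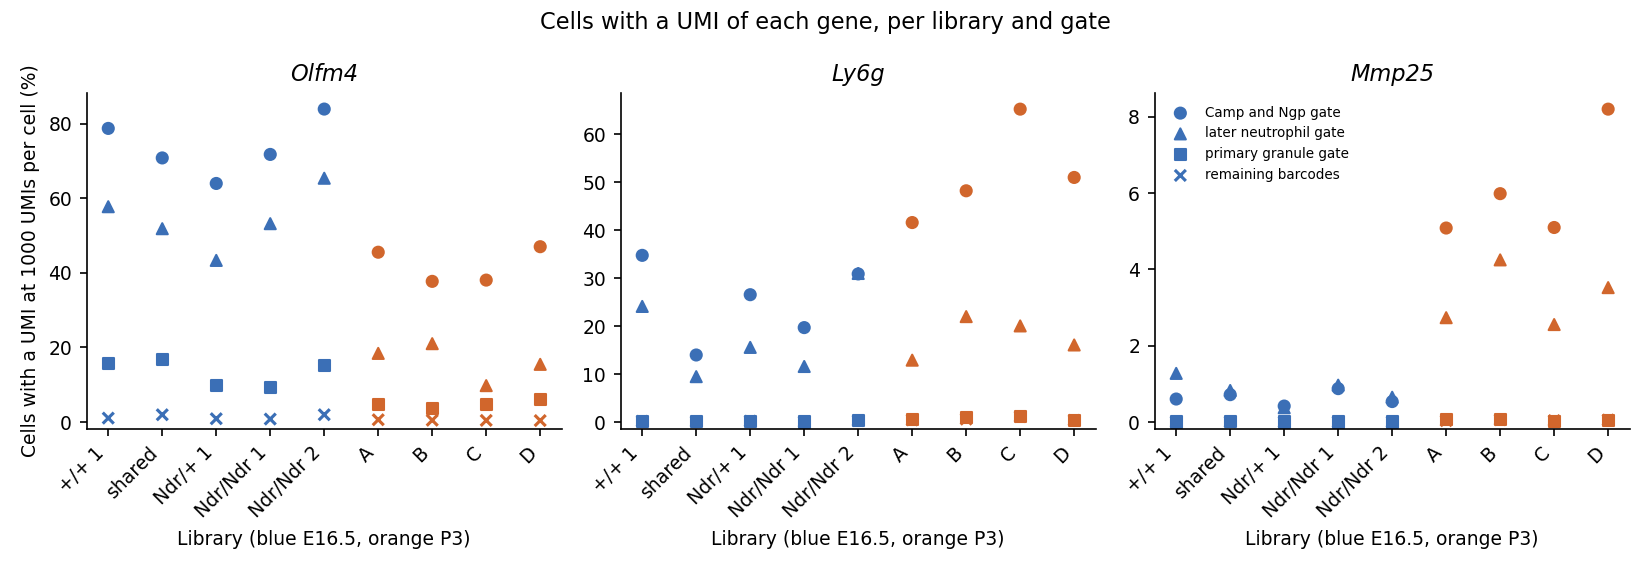
Percent of cells with at least 1 UMI of Olfm4, Ly6g or Mmp25 after each cell was thinned to 1000 UMIs, by library and gate (circle, Camp and Ngp gate; triangle, later gate; square, primary granule gate; cross, remaining barcodes). Olfm4 lies lower in the P3 libraries (37.7% to 47.0%) than at E16.5 (64.0% to 84.0%) in the Camp and Ngp gate, and Ly6g and Mmp25 lie higher.

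Genes of the primary granules had no settled direction between stages. Of 6 listed genes 2 rose, a share near the 24.8% of all genes, and none fell, with a median log2 fold change of 0.61. Elane stood at 398, 203, 173, 310.2 and 425 CPM at E16.5 and at 905, 660.5, 636 and 775 CPM at P3, without overlap and with a log2 change of 1.10 ± 0.26 (SE; adjusted p = 0.00366) by edgeR. Prss57, a serine protease of the same granules, went from 27.8 ± 6.42 to 58.8 ± 6.71 CPM (log2 0.88, adjusted p = 7.89e-04 by edgeR). Mpo averaged 227 and 420.5 CPM and Prtn3, the proteinase 3 gene, 529 and 860.3 CPM, with adjusted p-values of 0.132 and 0.133. None of the 6 was called higher in cells low in globin and Prtn3, Ctsg and Ms4a3 were called lower, with a median of -0.73. Prtn3 had log2 -0.94, adjusted p = 0.0106 by edgeR there, whereas it was called higher in the band of 2% to 8% (log2 0.77, adjusted p = 0.0393). Elane (log2 -0.25), Mpo (-0.52) and Prss57 (-0.16) also had fold changes below 0 in cells low in globin, which did not pass.

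Genes of the gelatinase granules and of later cells were mixed. Of 18 listed genes 4 rose and 7 fell, and the median log2 fold change was -0.39. Among those that fell were Fpr2, a formyl peptide receptor (132 ± 21.2 to 76.2 ± 13.3 CPM, adjusted p = 1.14e-04 by edgeR), Adam8, a metalloproteinase (45 ± 13.6 to 22.1 ± 5.51 CPM, log2 -1.23, adjusted p = 0.00126), Trem1, an activating receptor (53.8 ± 14 to 31 ± 3.32 CPM, log2 -1.01, adjusted p = 7.89e-04), and G0s2, an inhibitor of triglyceride breakdown (165 ± 44.6 to 83.3 ± 14.8 CPM, log2 -1.22, adjusted p = 0.00205). Among those that rose were Msrb1, a methionine sulfoxide reductase (344 ± 34.9 to 558 ± 77 CPM, log2 0.47, adjusted p = 0.02 by edgeR), and the chemokine gene Ccl6 (3.15 ± 1.63 to 19.1 ± 6.01 CPM, log2 2.40, adjusted p = 1.71e-04). Msrb1 did not pass without Jag1+/+ replicate 1, Jag1Ndr/Ndr replicate 2 or library B, with adjusted p-values of 0.0510 to 0.0571. Mmp8 averaged 477 ± 168 and 352 ± 59.8 CPM, with an adjusted p of 0.0505 by edgeR. Of 24 alternatives 10 called it lower, with adjusted p-values from 0.0148 to 0.0492, among them DESeq2, and 2 called it higher. In cells at 4% to 8%, 8 of the 18 were higher at P3 and 3 lower, with a median of 0.62 and Mmp8 higher (log2 1.09, adjusted p = 0.0405 by edgeR). In the cells low in globin 11 of 16 were higher and 1 lower, among the former Fpr2 (log2 0.59, adjusted p = 0.0187 by edgeR) and Adam8 (log2 0.86, adjusted p = 0.0499), while Trem1 did not pass there (log2 0.17, adjusted p = 0.453). The direction of this list thus depended on the part of the gate compared.

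The stefin A genes, a mouse cluster of cysteine protease inhibitors with near-identical copies, had fold changes below 0 in all 6 listed genes, with a median log2 fold change of -0.52. Of these, 2010005H15Rik and Stfa1 fell, a share near the 23.5% of all genes, and none rose. Stfa2 and 2010005H15Rik were called higher and Stfa1 lower in cells low in globin, and in thinned cells none was called. Stfa1 stood at 37034, 35765, 33523, 37825 and 38806 CPM at E16.5 and at 36468, 26495, 17339 and 19714 CPM at P3, with a log2 change of -0.74 ± 0.23 (SE; adjusted p = 0.0196) by edgeR. Library A overlapped with the E16.5 range, and without library C or library D the adjusted p was 0.0675 or 0.0634. In thinned cells Stfa1 did not pass either (log2 -0.47, adjusted p = 0.119 by edgeR). How reads of such copies were divided was not stated, so the member genes are uncertain. S100a8 and S100a9, the calprotectin genes, averaged 81260.0 and 86359 CPM at E16.5 and 96311 and 90956 CPM at P3, and neither passed (adjusted p = 0.851 and 0.57 by edgeR). S100a11 fell (1151 ± 133 to 836 ± 100.3 CPM, log2 -0.70, adjusted p = 0.00515 by edgeR), but not among the cells low in globin (log2 0.26, adjusted p = 0.186).

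The NADPH oxidase, which makes superoxide in phagocytes, had 4 of its 6 listed genes higher at P3 and none lower. Cyba, its smaller membrane subunit, stood at 1055, 822, 1093, 1136 and 991 CPM at E16.5 and at 1788, 2425, 2339 and 2177 CPM at P3, without overlap and with a log2 change of 0.86 ± 0.17 (SE; adjusted p = 0.00152) by edgeR. The cytosolic subunits Ncf4 (327 ± 55.5 to 779 ± 129 CPM, log2 1.03, adjusted p = 5.23e-04 by edgeR) and Ncf1 (343 ± 54.6 to 541 ± 56.1 CPM, log2 0.45, adjusted p = 0.00891) and the small GTPase Rac2 (672 ± 58.4 to 1466 ± 235 CPM, log2 0.91, adjusted p = 4.20e-04) rose as well. Cybb, the catalytic subunit, averaged 883 ± 121 and 1073 ± 374 CPM and did not pass (adjusted p = 0.895 by edgeR). In cells low in globin all 6 were called higher, Cybb included (log2 0.83, adjusted p = 0.0106 by edgeR). Of 10 surface genes 2 rose, Ly6g and the receptor Gpr84 (17.8 ± 2.87 to 32.2 ± 8.06 CPM, log2 0.64, adjusted p = 0.00543 by edgeR), and 3 fell. The latter were the integrin genes Itgam (238 ± 45.6 to 165 ± 17.9 CPM, log2 -0.74, adjusted p = 8.94e-04 by edgeR) and Itgb2 (194 ± 34.4 to 166 ± 6.77 CPM, log2 -0.42, adjusted p = 0.0129), which encode the subunits of Mac-1, and the marrow retention receptor Cxcr4 (85.6 ± 22.4 to 47.1 ± 19.6 CPM, log2 -1.04, adjusted p = 0.0107). Of the 10 genes 5 were called higher and 1 lower in cells low in globin. There Gpr84 rose more (log2 1.26, adjusted p = 4.62e-04 by edgeR), and the fold changes of Itgam and Itgb2 were above 0 and did not pass.

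**Figure D5:**
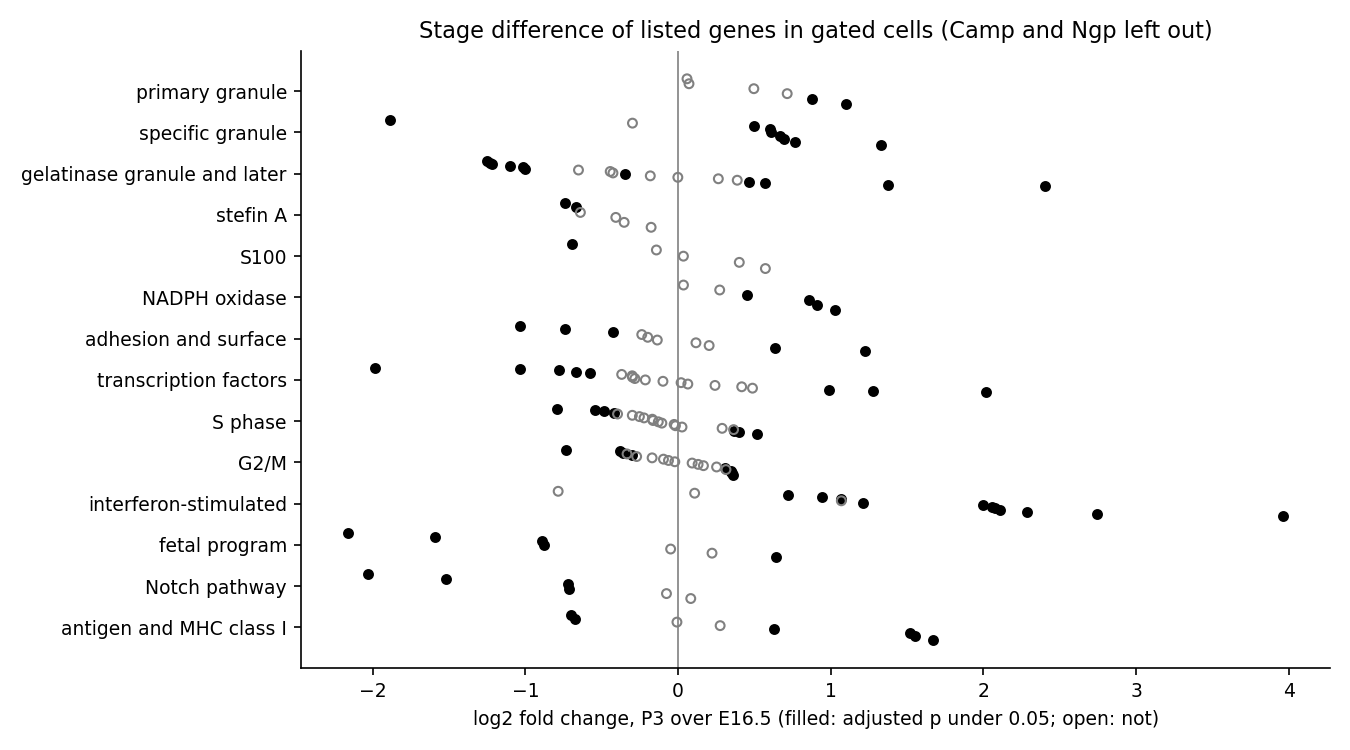
Log2 fold change from E16.5 to P3 in gated cells for the tested genes of 14 lists without Camp and Ngp, which chose the cells, 1 point per gene (filled, adjusted p under 0.05 by edgeR; open, not). Of the 9 specific granule genes 7 are called at the right and Olfm4 alone at the left, and 11 of 14 interferon-stimulated genes are called, all at the right.

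Among transcription factors, 3 of 19 tested genes rose and 5 fell. Spi1, the gene of PU.1, a master regulator of myeloid cells, stood at 188, 152, 184, 218 and 162 CPM at E16.5 and at 451, 574, 545 and 483 CPM at P3, without overlap and with a log2 change of 1.27 ± 0.17 (SE; adjusted p = 8.67e-05) by edgeR. Cebpe stood at 369, 285, 329.8, 405 and 322 CPM and at 633, 905, 850.2 and 807 CPM, also without overlap and with a log2 change of 0.99 ± 0.16 (SE; adjusted p = 4.27e-04) by edgeR. Both rises were present in cells at 4% to 8% (log2 1.29 and 0.84). Irf8, a factor of the monocyte branch, rose from 7.29 ± 3.14 to 33.7 ± 10.7 CPM (log2 2.02, adjusted p = 1.09e-04 by edgeR), while the remaining barcodes went from 28.6 to 129.5 CPM. It did not pass in cells low in globin (log2 0.65, adjusted p = 0.284 by edgeR). Cebpb, known for emergency granulopoiesis, stood at 330.1, 215, 283, 374 and 247 CPM at E16.5 and at 154, 59.8, 61.7 and 57.4 CPM at P3. All P3 libraries were lower, library A least so, with a log2 change of -1.99 ± 0.35 (SE; adjusted p = 6.63e-04) by edgeR. The immediate-early genes Jun and Fos and the factors Klf6 and Myc were also called lower, with log2 fold changes from -1.04 for Jun to -0.57 for Klf6. These 4 calls did not hold throughout. Among cells low in globin Jun (log2 -0.73, adjusted p = 0.105 by edgeR) and Klf6 (log2 -0.18, adjusted p = 0.432) did not pass, nor did Jun without library C or D or Klf6 without library C. Fos and Myc each lost the call when any of 6 of the 9 libraries was left out, with adjusted p-values of 0.0804 to 0.108 for Fos and of 0.0581 to 0.106 for Myc.

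Proliferation genes were expressed in the gate at both stages. Of 20 S phase genes 3 rose and 4 fell, and of 20 G2/M genes 5 rose (Aurka, Cenpe, Cdc20, Tacc3 and Top2a) and 4 fell. None of these 5 rises was called in the bands of 2% to 8% or 4% to 8%, in thinned cells or in cells low in globin, where 4 to 6 genes of the G2/M list were called lower and none higher. Over all alternatives, Top2a lost its call in 15, Cenpe in 13, Cdc20 in 8, Aurka in 7 and Tacc3 in 4. Mki67, the Ki-67 gene, stood at 547, 714, 396, 425 and 590.5 CPM at E16.5 and at 401, 527, 487 and 780.1 CPM at P3, and did not pass (adjusted p = 0.407 by edgeR). Cdk1, the mitotic kinase, fell from 147 ± 17.4 to 100.1 ± 22.6 CPM (log2 -0.73, adjusted p = 0.00418 by edgeR) and Mcm2, a subunit of the replicative helicase, from 67.6 ± 18.3 to 44.3 ± 6.37 CPM (log2 -0.80, adjusted p = 5.91e-04), whereas another subunit, Mcm7, rose from 73.8 ± 12.6 to 121 ± 10.2 CPM (log2 0.52, adjusted p = 0.00319) but did not pass in thinned cells (log2 0.25, adjusted p = 0.201 by edgeR). With cells thinned to 1000 UMIs, 52.4% ± 4.28 of gated cells at P3 (SD, n = 4) and 67.5% ± 9.23 at E16.5 (SD, n = 5) had at least 2 UMIs of the G2/M list (exact permutation p = 0.0317), with overlapping groups. The p was 0.0571 to 0.0714 without library A, B or C or without the shared library, Jag1+/+ replicate 1, Jag1Ndr/+ replicate 1 or Jag1Ndr/Ndr replicate 2. In cells low in globin the thinned shares were 51.4% and 80.7% (exact permutation p = 0.0159), without overlap. Over all gated cells without thinning, the shares were 68.9% to 73.0% at P3 and 99.9% to 100% at E16.5. In the later gate, whose cells are past division when mature, the thinned shares were 30.9% to 67.3% at P3 and 66.6% to 79.7% at E16.5, so no cycling is read from them. The spread within a library differed: at P3 29.4% to 37.7% of gated cells had no G2/M UMI at this depth and 23.2% to 34.5% had 5 or more, while at E16.5 the shares were 6.76% to 20.5% and 14.4% to 33.3%.

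Interferon-stimulated genes were higher at P3. Of 14 listed genes, all tested, 11 rose and none fell, with a median log2 fold change of 1.60. Ifitm3, a membrane protein that blocks viral entry, stood at 109.8, 86.6, 119.9, 216 and 109 CPM at E16.5 and at 399, 650.0, 956 and 557 CPM at P3, without overlap and with a log2 change of 2.07 ± 0.31 (SE; adjusted p = 2.10e-04) by edgeR. Ifi27l2a stood at 3.39, 4.62, 9.11, 19.1 and 7.34 CPM at E16.5 and at 90.9, 173, 247 and 141 CPM at P3, with a log2 change of 3.96 ± 0.47 (SE; adjusted p = 4.15e-05) by edgeR. Irf7, the transcription factor of the type I interferon response, went from 6.44 ± 3.6 to 37.7 ± 20.9 CPM (log2 2.29, adjusted p = 0.00122 by edgeR) and Isg15, a ubiquitin-like modifier, from 12.6 ± 8.69 to 61.7 ± 38.4 CPM (log2 1.99, adjusted p = 0.0093). Among cells low in globin 10 of the list were tested, of which 6 were called higher and Rsad2 lower, and Isg15 did not pass (log2 1.58, adjusted p = 0.063 by edgeR). Over all alternatives, Isg15 lost its call in 2 and kept it in 22. Library C was the highest of P3 for Ifitm3, Ifi27l2a, Irf7 and Isg15, and library A the lowest. At E16.5 the highest was Jag1Ndr/Ndr replicate 1.

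The means of all 14 genes were also higher at P3 in the other cells of the liver, where the stages were not tested on their own. In the remaining barcodes Ifitm3 went from 73.2 to 336 CPM, Irf7 from 5.93 to 70.6 CPM and Isg15 from 30.6 to 258 CPM. The difference of the stage effect between gated and remaining barcodes was tested in 1 edgeR model, chosen after the data had been seen, in which 2438 of 13742 genes (17.7%) passed. Of the 14 listed genes the rise was larger in gated cells for Ifi27l2a (log2 1.86, adjusted p = 2.52e-05 by edgeR) and smaller for 4, among them Irf7 (log2 -0.60, adjusted p = 0.00306) and Isg15 (log2 -0.45, adjusted p = 0.00405). Of 8 genes of MHC class I and its peptide supply, 4 rose and 2 fell. H2-K1, a class I heavy chain, rose from 31.6 ± 5.82 to 107 ± 33.2 CPM (log2 1.52, adjusted p = 1.34e-04 by edgeR), Tap1, a subunit of the peptide transporter, from 6.81 ± 3.41 to 23.5 ± 7.79 CPM (log2 1.55, adjusted p = 0.00169), and B2m, the light chain, fell from 292 ± 37.4 to 209.7 ± 24.2 CPM (log2 -0.67, adjusted p = 0.0013).

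Of 7 genes of the fetal Lin28b and Igf2bp program, 4 fell and 1 rose. Lin28b, which blocks let-7 maturation in fetal blood progenitors, was low at E16.5 (4.39, 5.16, 3.74, 2.93 and 4.28 CPM) and lower at P3 (1.25, 1.52, 1.47 and 2.22 CPM), with a log2 change of -1.59 ± 0.19 (SE; adjusted p = 4.56e-05) by edgeR. Igf2bp3, an RNA-binding protein of the same program, rose from 29.7 ± 4.72 to 53.5 ± 7.3 CPM (log2 0.64, adjusted p = 2.51e-04 by edgeR), and it went from 19.9 to 38.5 CPM in the remaining barcodes. Its rise did not pass in cells low in globin (log2 0.35, adjusted p = 0.0801 by edgeR), where 3 of 6 genes of the list were called lower. Of 12 genes of the Notch pathway, which the Ndr allele disturbs, 6 were expressed enough to be tested, and 4 fell. Notch2, a receptor, stood at 26.5, 29.8, 28.2, 27.9 and 31 CPM at E16.5 and at 10.3, 17.1, 8.32 and 10.3 CPM at P3, without overlap and with a log2 change of -1.52 ± 0.19 (SE; adjusted p = 5.52e-05) by edgeR. The receptor Notch1 fell from 44.4 ± 10.6 to 31.2 ± 4.01 CPM (log2 -0.72, adjusted p = 0.00169 by edgeR), but did not pass in cells low in globin (log2 -0.32, adjusted p = 0.156) or in thinned cells (log2 -0.35, adjusted p = 0.0779). Jag1 itself, at 3.19, 4.74, 2.73, 3.26 and 3.28 CPM at E16.5 and 1, 1.37, 0.566 and 0.667 CPM at P3, and the target gene Hes1, from 2.65 ± 0.294 to 1.86 ± 0.426 CPM, were at a few CPM and were also called lower. Hes1 did not pass in the band of 2% to 8% (log2 -0.43, adjusted p = 0.133 by edgeR). Of the 12 genes 3 could be tested in cells low in globin, and 1 of them was called lower. The Ndr allele is a missense change, so the level of Jag1 RNA does not check the genotype labels.

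By a fixed rule (called, at least 20 CPM on average, no overlap, no globin gene or marker of another cell type) 1434 genes could be named, and the 10 largest changes each way were taken. The largest rises were Atp6v0c (log2 8.08), Timm23 (5.46), Igkc (5.39), Iglc1 (4.89), Ifi27l2a, Mmp25, BC004004, Ly6e, Irf7 and Ctss. Among the largest falls were Ptp4a1 (log2 -6.64), Fam220a (-5.01), Mt2, Slc2a1, Fam173a, Slc25a37, Kel, Hist1h2bc and Rpa3. Many of these moved alike in the remaining barcodes. Atp6v0c, a proton pump subunit, went from 2.23 to 701 CPM in gated cells and from 0.87 to 282 CPM in the others, and Ptp4a1, a phosphatase, from 116 to 1.3 CPM and from 45.2 to 0.656 CPM. The gene lists differed between stages, so for such genes annotation and stage cannot be told apart. Igkc and Iglc1 are antibody light chain genes, and in the remaining barcodes they went from 22.1 to 744 CPM and from 2.16 to 157 CPM. Slc2a1, Slc25a37 and Kel are known from red cell precursors, and the erythroid markers were lower at P3 as given above. The part of red cell RNA in these falls was not tested.

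Some large changes were in genes more than 2 times as high in the gate as in the remaining barcodes at 1 stage. This stage was E16.5 for falls and P3 for rises, so the excess describes only the stage where the gene was higher. These genes were picked after values had been seen. Thbs1, the thrombospondin 1 gene, stood at 757, 339, 299.9, 585 and 473 CPM at E16.5 and at 58.4, 85.8, 78.2 and 139.6 CPM at P3, without overlap and with a log2 change of -2.68 ± 0.30 (SE; adjusted p = 2.71e-05) by edgeR. It did not pass among the cells low in globin (log2 -0.70, adjusted p = 0.109). The cytokine gene Osm fell from 36.4 ± 21.6 to 10.9 ± 1.97 CPM (log2 -1.95, adjusted p = 0.00165 by edgeR), Gm5416, a predicted gene, from 259 ± 47.2 to 91.2 ± 37.1 CPM (log2 -1.74, adjusted p = 1.81e-04), and Myadm, a myeloid membrane gene, from 64.7 ± 12.6 to 16.51 ± 2.79 CPM (log2 -2.16, adjusted p = 3.31e-06). Among cells low in globin Osm (log2 -0.25, adjusted p = 0.533 by edgeR) and Gm5416 (log2 -0.47, adjusted p = 0.137) did not pass and Myadm passed with a smaller change (log2 -0.66, adjusted p = 0.0394). Lrg1, a glycoprotein of neutrophil granules, stood at 65.3, 70.5, 80.6, 87.1 and 49.4 CPM at E16.5 and at 226, 372, 318 and 254 CPM at P3, without overlap and with a log2 change of 1.82 ± 0.21 (SE; adjusted p = 3.47e-05) by edgeR and a larger change in cells low in globin (log2 3.01, adjusted p = 1.97e-06). Agpat2, an enzyme of phospholipid synthesis (92.5 ± 9.54 to 258 ± 19.7 CPM, log2 1.25, adjusted p = 2.61e-05 by edgeR), and the adaptor gene Dok3 (53.3 ± 5.29 to 145 ± 19.4 CPM, log2 1.23, adjusted p = 2.89e-05) rose as well.

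At E16.5 the 2 Jag1Ndr/Ndr libraries were compared with the 3 others. Gated cells made up 5.67% ± 0.495 of barcodes (SD, n = 2) and 6.65% ± 1.33 (SD, n = 3), a difference of -0.975 percentage points with an exact permutation p of 0.6, where the smallest possible is 0.2. The difference was 6.59 points among barcodes under 5% globin and 10.8 points when barcodes with other markers were also left out (exact permutation p = 0.4 for each). Of 11887 genes 0 passed the adjusted threshold in edgeR's quasi-likelihood test (0%), and 218 had an unadjusted p under 0.05. Without any difference, about 5% of the genes tested are expected under that unadjusted p. DESeq2 called 2 genes (0.0168%), Gzma and Basp1. Without Jag1+/+ replicate 1, Jag1Ndr/Ndr replicate 1 or Jag1Ndr/Ndr replicate 2, edgeR called 12, 3 and 19 genes. Leaving out a homozygous replicate left 1 library in that arm, which was assumed to vary like the 3 others. The CPM of the groups did not overlap for 1029 genes (8.66%). For a gene without any difference, a random split of 2 libraries against 3 sets the groups apart with a probability of 0.2. Gzma, the granzyme A gene of cytotoxic lymphocytes, stood at 0.199, 1.19 and 0.528 CPM in the others and at 22.7 and 8.12 CPM in the homozygous libraries (edgeR log2 4.66, SE 0.54, adjusted p = 0.0635; DESeq2 adjusted p = 0.00442). In the remaining barcodes of E16.5 Gzma stood at 7.48 to 20.6 CPM. The 10 T and NK markers summed in gated cells to 96.8, 133 and 128 CPM in the others and to 61.9 and 111 CPM in the homozygous libraries, and to 14.8 to 33.4 CPM in the remaining barcodes. Their part in this difference was not tested. Basp1 had a DESeq2 adjusted p of 0.0312 and an edgeR adjusted p of 1.

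The granule genes showed no call between genotypes. Ltf averaged 3392 ± 742 CPM (SD, n = 2) in the homozygous libraries and 3288 ± 506 CPM (SD, n = 3) in the others, a log2 difference of 0.13 (SE 0.24). Lcn2 averaged 7771 ± 560.4 CPM (SD, n = 2) in the homozygous libraries and 7528 ± 956 CPM (SD, n = 3) in the others, a log2 difference of 0.08 (SE 0.28). For Chil3, 1250.0 ± 11.5 CPM (SD, n = 2) in the homozygous libraries and 834 ± 467 CPM (SD, n = 3) in the others gave a log2 difference of 0.71 (SE 0.38), with the low Jag1Ndr/+ library among the others. Camp and Ngp, which chose the cells, averaged 22490.0 and 16084 CPM against 20456 and 16644 CPM. Of 13 interferon-stimulated genes tested, 13 had a fold change above 0 in homozygous libraries and none was called, with a median log2 difference of 0.67 beside 0.00 over all genes. Without Jag1Ndr/Ndr replicate 1, 4 of 13 were above 0 and the median was -0.14. With all libraries, other lists leaned the same way: 6 of 6 primary granule, 6 of 6 stefin A, 6 of 6 NADPH oxidase and 8 of 8 MHC class I genes were above 0. Of the S phase genes 4 of 20 and of the G2/M genes 3 of 20 were above 0. Of the 6 Notch pathway genes tested none was called, and their median log2 difference was 0.06. With changes of 2 times simulated in 100 genes of this comparison, 57 were recovered, and of 100 genes changed 4 times all 100. There were 19 false calls. The changed genes were drawn only from genes above 20 CPM on average. The recovery rates therefore do not tell whether a change in genes at a few CPM, such as Jag1 and Hes1, would have been called.

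At P3, library C (Jag1Ndr/Ndr) and library D (Jag1Ndr/+) were 1 library each, so values are given with 95% intervals for counting error only and no test. Gated cells made up 17.2% (exact binomial interval 16.6% to 17.8%) of barcodes in C and 10.6% (10.1% to 11.1%) in D. The barcodes counted differed in depth: every passing barcode of C held at least 2000 UMIs, but only 13252 of 17036 did in D. With 2000 UMIs required, the share in D was 12.1% (11.5% to 12.6%), and that in C was unchanged. Ltf stood at 8067 CPM in C (exact Poisson interval 8025 to 8109) and at 5956 CPM in D (5905 to 6006). Lcn2 stood at 15100.0 (15043 to 15158) and 12424 CPM (12352 to 12497), and Chil3 at 2714 (2689.9 to 2738) and 2832 CPM (2797 to 2867). Olfm4 stood at 650.3 (638 to 662) and 896 CPM (877 to 916). Mpo was at 258 (250.2 to 265) in C and 573 CPM (558 to 589) in D. Libraries A and B, of unclear genotype, stood at 5386 and 5492 CPM for Ltf, 863 and 726 CPM for Olfm4, and 597 and 253 CPM for Mpo.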

How the data were processed

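Single-cell libraries of whole mouse liver were deposited for 12 samples as matrices of UMI counts per gene and barcode. These counts were made by the authors with Cell Ranger 2.1.1 on mm10, per the submitters' processing notes, whereas the file headers name 10x software 3.0.2 at P3 and 3.1.0 at E16.5. Identical samples were counted once, 2 P3 samples made mostly of other samples' barcodes were not used, and library C was what remained of a sample without the barcodes of library A, which left 9 libraries. Counts of gated cells were summed per library and tested with edgeR 4.0.16 (quasi-likelihood, TMM, low-count filter, Benjamini-Hochberg adjustment), with DESeq2 1.42.0 as an alternative. Shares were compared by 2-sided exact permutation tests. For the stage comparison and the CPM totals, genes were taken from the 22519 common to both lists. The genotype comparison started from the whole E16.5 list of 31053 genes. Coordinates came from GENCODE M21 by gene identifier. No doublet caller was run. In simulated data for the stage comparison 96 of 100 genes changed 2 times and 100 of 100 changed 4 times were recovered. There were 9 false calls. For the genotype comparison these numbers were 57, 100 and 19. The changed genes were drawn only from genes above 20 CPM on average, so the recovery rates do not describe genes at lower levels.

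Named genes were the markers, the 10 largest rises and falls past the threshold (mean of at least 20 CPM, groups apart, no marker of other cells) and members of the fixed lists; 1 gene that met the rule is not reported here. The members and lists were chosen with earlier results of these data known. Alternatives were the gate (0.5% or 2%, or bands of 2% to 8% and 4% to 8%), the minimum of UMIs (2000), the mitochondrial maximum (10%), thinning, normalization, no filter, removal of cells with 5% or more globin or 0.5% or more other markers, and leaving out each library. Further alternatives left out the 10% of gated cells with the most globin and other-marker UMIs, globin and other-lineage genes, or Camp and Ngp. Shares were also taken among barcodes under 50% globin. Added after the data had been seen were the 4% to 8% band and the model comparing the stage effect with the remaining barcodes. The same holds for leaving out those 10% of cells or the globin and other-lineage genes, and for the shares under 50% globin. Intervals cover counting error only.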

Additional observations from a re-analysis of the deposited data

Results flagged for a closer look

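In 14 of 202 groups examined, 1 library stood far from the others of its stage by Dixon's criterion, which chance alone meets in about 1 in 20 groups. The gated share of the shared E16.5 library was 8.18% of barcodes, with 6.02% in the nearest library, and its Jag1 level was 4.74 CPM. Chil3 was at 309 CPM in Jag1Ndr/+ replicate 1, against 992 CPM in the nearest library. In Jag1Ndr/Ndr replicate 1, Ifitm3 was at 216 CPM, Gm5416 at 340.4 CPM and Fam220a at 130.3 CPM. Irf8 was at 12.8 CPM in Jag1+/+ replicate 1. At P3, Cebpb was high in library A (154 CPM, nearest 61.7 CPM) and Agpat2 low there (229 CPM). Hp was at 1830 CPM in library B. In library C, Ly6e was at 511 CPM (nearest 248 CPM), Dok3 at 174 CPM and Mcm7 at 137 CPM. Itgam was at 191 CPM in library D.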

How the results depend on the processing

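Over the named genes, 2167 stage values and 114 genotype values kept their direction and their side of the threshold, 118 stage values no longer passed, 22 and 12 newly passed and 32 and 9 changed sign. The cause was not tested. The stage comparison called 3001 genes with thinned cells (2710 shared with the 5484) and 3603 in cells low in globin (2784 shared), where fewer genes were tested. Leaving out 1 library gave 4826 to 5489 calls. The genotype comparison called 2 genes with DESeq2, 53 with no filter, and 1 each in the 2% to 8% band, with the 2% gate and in cells low in globin. Leaving out 1 library gave 0 to 19.

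The share with G2/M UMIs differed between stages by -18.3 to -12.2 percentage points when 1 library was left out, by -29.3 in cells low in globin and by -22.6 with 1 G2/M UMI required, and the share with 2 S phase UMIs by -9.96 (exact permutation p = 0.0794). Between genotypes the G2/M difference was -15.4 to 2.74 points on leaving out 1 library. Among barcodes under 5% globin the gated share differed by 9.71 points between stages and by 6.59 between genotypes, and in cells low in globin by 22.00 and 10.8.

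Sign changes of log2 fold changes between stages in cells low in globin were Adam8 0.86, Elane -0.25, Fpr2 0.59, Itgam 0.084, Itgb2 0.33, Mmp8 2.12, Mpo -0.52, Prss57 -0.16, Prtn3 -0.94, Retnlg 2.33, S100a11 0.26, S100a9 0.15, Trem1 0.17 and Wfdc21 0.32. In thinned cells they were Camp 0.11, Retnlg 0.18, S100a9 0.18 and Wfdc21 0.044. In the 2% to 8% band they were Cybb -0.22, Retnlg 0.071 and S100a8 -0.15, and in the 4% to 8% band Cybb -0.029, Mmp8 1.09, Retnlg 1.05 and S100a8 -0.030. Omitting 1 library took Cybb to -0.17 to 0.15 and S100a8 to -0.016 to 0.091. Between genotypes, cells low in globin gave Basp1 -0.013 and Ngp 0.17, and omitting 1 library gave -0.0097 to 0.29 for Camp, -0.11 to 0.31 for Lcn2, -0.18 to 0.38 for Ltf and -0.18 to 0.19 for Ngp.

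Same-numbered libraries did not deviate together (correlations -0.0939 to 0.218 at E16.5), so the numbers were not used as pairs. With the replicate number as a block, 5307 genes were called between stages and 0 between genotypes, and Cybb (log2 -0.00096) and, between genotypes, Ngp (log2 0.075) changed sign. At 8999993 or more gated UMIs per library, depth limits genes at a few CPM, such as Jag1 and Lin28b.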
